A study of Mus musculus with 74 samples.

Results

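Short internal fragments of *mt-TR*, the mitochondrial tRNA for arginine, were examined in small RNA from mouse lung. They were taken from the counted sequences by position alone: 15 to 29 nt long, starting at position 32 or later and ending at position 68 or before in mature *mt-TR* of C mtDNA. The fragments therefore come from the 3′ side of the anticodon loop and stem, the variable loop, the T-arm and the acceptor stem's 3′ strand. They carry neither the 5′ end nor the CCA end of the tRNA. Of 500 sequences counted, 108 met the rule, and they held 461 of 5606 reads, a share of 8.22% (95% Wilson interval 7.53 to 8.97%). Such intervals cover counting error only.

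The 74 libraries came from untreated, healthy adult mice of both sexes (38 female and 36 male) and 6 genotypes, in which the first letter names the nuclear genome and the second the mtDNA (C for C57BL/6J, H for C3H/HeN, F for FVB/NJ). Wild-type mice were CC (12 libraries), HH (12) and FF (12). Mitochondrial-nuclear exchange (MNX) mice, in which transfer of pronuclei combined the nuclear genome of a strain with the mtDNA of another, were CH (13), CF (12) and HC (13). CH and CF thus share the nuclear genome of CC, and HC that of HH. Libraries held 0 to 1280 *mt-TR* reads. The 3 libraries without reads (1 each of CH female, FF female and HH male) enter no share or test, which leaves 71. HC male replicate 3 was the deepest library by far, with 22.8% of all reads, and the labels place libraries in 3 batches, of which batch 1 held only HC and CH females.

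Mitochondrial tRNAs are transcribed from mtDNA as part of long polycistronic transcripts, cut out at both ends, given a CCA end and charged with an amino acid for translation inside the organelle. Cuts within a tRNA give tRNA-derived fragments (tRFs), and those that lack both mature ends are called internal tRFs. The anticodon loop, which reads the codon, is a common site of such cuts, while the T-arm is the hairpin at the 3′ side that packs against the D-arm in the folded molecule.

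The whole stretch from which the fragments can come is printed first, at chrM:9839-9875 on the + strand of GRCm38 in the gene *mt-Tr* (ENSMUSG00000064361.1), which has no intron and is not translated. The 10 fragments with the most reads follow in the order of their reads, since they show how the ends vary. Letters are those of the DNA, 5′ to 3′, and capitals mark the T-loop (positions 50 to 55).
Positions 32 to 68, chrM:9839-9875: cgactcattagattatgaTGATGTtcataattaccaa
Positions 37 to 57, chrM:9844-9864: cattagattatgaTGATGTtc
Positions 48 to 66, chrM:9855-9873: gaTGATGTtcataattacc
Positions 36 to 59, chrM:9843-9866: tcattagattatgaTGATGTtcat
Positions 37 to 55, chrM:9844-9862: cattagattatgaTGATGT
Positions 38 to 57, chrM:9845-9864: attagattatgaTGATGTtc
Positions 32 to 55, chrM:9839-9862: cgactcattagattatgaTGATGT
Positions 35 to 55, chrM:9842-9862: ctcattagattatgaTGATGT
Positions 32 to 53, chrM:9839-9860: cgactcattagattatgaTGAT
Positions 32 to 48, chrM:9839-9855: cgactcattagattatg
Positions 41 to 62, chrM:9848-9869: agattatgaTGATGTtcataat

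In this numbering the anticodon tcg occupies positions 31 to 33, so a fragment starting at 32 or 33 begins within it. The anticodon loop runs from 29 to 35, the 3′ strand of the anticodon stem from 36 to 40 and the variable loop from 41 to 44. The T-stem pairs 45 to 49 with 56 to 60, and the 3′ strand of the acceptor stem runs from 61 to 67, before the discriminator base at 68. All 5 base pairs of the anticodon stem, all 5 of the T-stem and all 7 of the acceptor stem could form in the C sequence. All 108 fragments occur in *mt-TR* of each of the 3 mtDNA types, so no fragment by itself tells the types apart. In the 141767 annotated transcripts searched, 1 fragment of 15 nt (gactcattagattat, positions 33 to 47, 1 read) also matched another transcript, and none matched one in antisense. Matches elsewhere in the genome were not searched.

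The fragments were many and each was rare. Of the 240 windows that the rule allows, 108 (45%) were seen. The median fragment had 3 reads, 30 fragments had 1 read, and 53 were found in 1 library only, with at most 6 reads each. No fragment was found in all 6 genotypes, and 3 were found in 5 of them. The 10 fragments printed above held 149 of the 461 reads (32.3%), and the most abundant held 4.56% of the reads of its class. For comparison, the most abundant fragment starting at position 24 held 21.9% of the short reads starting there. The most abundant with an intact CCA end held 25.7% of the reads ending so, and with a trimmed CCA end 16.8%. Other classes were as spread out as this one. The top fragment held 5.48% of short reads starting at 25 to 31 and 4.82% of those starting before 24. Among internal reads of 30 nt or more it held 7.22%. The top 10 held 43.8%, 33.8% and 39.1% in these 3 classes. No test was made of these differences between classes.

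Fragments with a median length of 21 nt were spread over all lengths allowed. Lengths of 19 to 21 nt held 208 reads (45.1%), 15 nt held 10 reads and 29 nt held 4. Just outside and just inside the limits of the rule, reads of 15 to 29 nt starting at 31 numbered 169 against 66 at 32, and those ending at 69, in the CCA end, numbered 140 against 4 at 68. Reads within the same bounds but of 30 nt numbered 8, and 108 reads had 30 nt or more.

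Starts fell on 19 of 23 possible positions. Position 32, inside the anticodon, was used most (66 reads in 22 libraries, 14 of the reads in HC male replicate 3), followed by position 36, the first base of the 3′ strand of the anticodon stem (57 reads in 18 libraries), and position 35, the last base of the anticodon loop (48 reads in 19 libraries). Together the starts lay in the anticodon for 113 reads (24.5%), in the rest of the loop for 71 (15.4%), in the anticodon stem for 151 (32.8%), in the variable loop for 68 (14.8%), in the T-stem for 52 (11.3%) and in the T-loop for 6 (1.3%). No fragment started at 50, 52, 53 or 54, where the rule leaves few windows. Later starts are allowed fewer lengths than earlier ones, so the shares by region are partly set by the rule. In the T-stem, position 48 stood out with 24 reads in 11 libraries. The same start was used by 157 longer reads that ran to position 71 and by 133 that stopped within the CCA end, at 69 or 70.

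Ends fell on 22 of 23 possible positions and gathered in the T-arm. Position 55, the last base of the T-loop, closed 71 reads in 21 libraries, and position 57, in the 3′ strand of the T-stem, closed 71 reads in 14 libraries, of which HC male replicate 3 gave 18 and 23. Position 66, in the acceptor stem, followed with 46 reads in 20 libraries. By region, 24 reads (5.21%) ended in the 5′ strand of the T-stem, 158 (34.3%) in the T-loop, 159 (34.5%) in the 3′ strand of the T-stem, 116 (25.2%) in the acceptor stem and 4 (0.868%) at the discriminator base. Reads that contained the whole T-loop numbered 344 (74.6%), of 75 fragments. Most windows that the rule allows also contain it, so this share is not a preference for the T-loop. Coverage was highest at position 48, which 96.3% of the reads contained. The limits on start, end and length place most allowed windows over this position too, so its coverage is largely set by the rule. No fragment ended at 49, where 124 reads of other classes ended.

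The last base of a fragment was more often a pyrimidine than the positions allowed would give. Of the 461 reads, 350 (75.9%, interval 71.8 to 79.6%) ended in T or C, while 11 of the 23 end positions (47.8%) hold a pyrimidine. T closed 47.7% of the reads and C 28.2%. Counted once per fragment, 62% ended in a pyrimidine. The share by reads was 74.4% without HC male replicate 3 and 74.4% in batch 2 alone, and it ranged from 59.7% in CC to 83.6% in CF. The base before the start was a pyrimidine in 72.5% of the reads (interval 68.2 to 76.3%), against 12 of 23 positions (52.2%). Counted once per fragment it was 64.8%. By genotype this share by reads ranged from 54.7% in CH, near that of the positions, to 84.6% in FF. These shares are a description with no test, since reads of 1 fragment and fragments of 1 library are not independent.

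The leading fragments each rested on few libraries. The fragment 37 to 57, which runs from the anticodon stem into the 3′ strand of the T-stem, had 21 reads in 4 libraries, 8 in CF female replicate 6, 7 in HH female replicate 6, 4 in HC male replicate 3 and 2 in HC female replicate 3. It was at 0 in every CC, CH and FF library. Its shorter form 37 to 55, which stops at the end of the T-loop, was counted 15 times, with 11 reads in HC male replicate 3 and 2 each in HC female replicate 3 and HH female replicate 5. The 2 forms share their start and differ by the 2 bases of the T-stem at the 3′ end. The fragment 38 to 57, 1 base shorter at the 5′ end than the most abundant, was more widespread, with 15 reads in 8 libraries of CC (2 reads), CH (1), HC (9) and HH (3). No library had more than 5 of them.

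The fragment found in the most libraries was 48 to 66, which holds the T-loop and most of the 3′ strand of the acceptor stem but stops short of the CCA end. Its 20 reads came from 10 libraries: 7 reads in 4 CH females, 6 in 3 HC libraries and 7 in 3 HH libraries, with 5 in HH male replicate 5. It was at 0 in all CC, CF and FF libraries. In these libraries 0 of 652, 0 of 684 and 0 of 177 reads were of this fragment, which allows shares of up to 0.460%, 0.439% and 1.69%. Of the 16 reads of the fragment 36 to 59, which covers the anticodon stem strand, the variable loop and nearly all of the T-arm, HC held 7, HH 4, FF 3, CC 1 and CH 1, in 9 libraries. The highest library, HC female replicate 3, had 4.

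Among the fragments that start in the anticodon, 32 to 55 was found in 5 libraries with 14 reads, of which CF male replicate 5, with 10 internal reads in all, gave 8. Its remaining reads lay in CF female replicate 6 (1) and in 3 HC libraries (5). The fragment 32 to 53, which ends inside the T-loop, had 12 reads in 7 libraries of CC (4 reads), CF (3), HC (3), FF (1) and HH (1), and no library had more than 3. The fragment 32 to 48 stops in the 5′ strand of the T-stem, before the T-loop, and had 11 reads in 6 libraries of every genotype but FF. These last 2 fragments and 36 to 59 were the 3 found in 5 genotypes.

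The fragment 35 to 55, from the last base of the anticodon loop to the last of the T-loop, was counted mainly in CF mice. Of its 14 reads, CF female replicates 1, 2 and 5 held 4, 4 and 2, CF male replicate 1 held 1, CH male replicate 1 held 2 and HC male replicate 1 held 1. It was at 0 in all 12 CC libraries and in the other 8 CF libraries, so the groups overlap. In CF female replicates 1 and 2 it was the only internal fragment counted. Against CC, its log2 difference in CF was 3.29 with an unadjusted p of 0.00585 and an adjusted p of 0.103 (edgeR's quasi-likelihood test, Benjamini-Hochberg over 153 fragments), and since CC was at 0 this fitted value is not a bound. Without its CF reads the fragment would not have reached the 10 reads needed for a test. Lastly, 41 to 62, from the variable loop to the acceptor stem, had 11 reads in 4 libraries, 7 in HC male replicate 3, 2 in HH female replicate 4 and 1 each in CH male replicate 1 and HH male replicate 5.

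Libraries held between 0 and 101 internal reads (median 2), and 55 of the 71 held at least 1. In the 61 libraries with at least 10 *mt-TR* reads, the internal share was 8.36% ± 6.37 (SD, n = 61), with a median of 7.92% and a range of 0 to 25%. In 9 of these 61 no internal read was counted, and the deepest of the 9 held 37 reads. The 16 libraries with 10 or more internal reads held 331 of the 461 (71.8%). HC male replicate 3 alone held 101 internal reads of 42 fragments, 11 of which were in no other library. Its share, 7.89% (interval 6.54 to 9.50%), was close to that of the other libraries pooled, 8.32%. In 24 libraries all internal reads were of 1 fragment. Such were 3 of the 31 libraries with 4 or more internal reads: the 2 CF females above and CH male replicate 5, with 7 reads of the fragment 39 to 59.

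By genotype the share of internal fragments was similar, and libraries of each genotype overlapped those of every other. Pooled over libraries, it was 10.3% in CC (67 of 652 reads, interval 8.17 to 12.8%), 9.80% in CF (67 of 684, 7.79 to 12.3%), 8.35% in HC (202 of 2420, 7.31 to 9.52%), 7.34% in FF (13 of 177, 4.34 to 12.2%), 6.83% in HH (59 of 864, 5.33 to 8.71%) and 6.55% in CH (53 of 809, 5.04 to 8.47%). The order of the medians over libraries with at least 10 reads was another one, from 10.1% in CC (range 0 to 16.7%) through 9.03% in FF (0 to 25%), 8.97% in CH (0 to 20.0%), 8.63% in CF (1.61 to 21.4%) and 6.67% in HC (0 to 15.5%) to 5.76% in HH (0 to 22.7%). Each genotype's range thus spans the medians of all the others. CH stands last in the first order but not in the second, and no pair of neighbours in either order differs beyond the spread of its libraries. The pooled share was 8.76% with C mtDNA, 9.29% with F mtDNA and 6.69% with H mtDNA. No p is given for these shares, because the fragments were grouped with results of these data known.

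Females and males had pooled shares of 8.40% (227 of 2703 reads) and 8.06% (234 of 2903). In CF the female libraries had a median of 10.8% (range 8.33 to 21.4%) and the male libraries 3.69% (1.61 to 13.7%), with ranges that overlapped. Batches 1, 2 and 3 had pooled shares of 8.70%, 7.73% and 9.66%. Within HC females the batches differed, with 11.9% (64 of 537 reads) in the 3 libraries of batch 1 and 3.89% (10 of 257) in the 4 of batch 2, and the libraries ranged from 5.63 to 15.5% and from 0 to 6.67%. CH females had 4.77% in batch 1 and 8.20% in batch 3, the latter on 5 reads of 61.

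Tests asked whether the use of a fragment, of a start or of an end, per *mt-TR* read of the library, differed between genotypes or sexes. They were fitted on all fragments of *mt-TR* and on all start and end positions within each class of fragments, with genotype, sex and batch as terms. Only features with at least 10 reads in all were tested, which 11 of the 108 fragments, 12 of the 19 starts and 16 of the 22 ends passed. A fit without this minimum, over all 108 fragments, 19 starts and 22 ends, called 0 of the 108 fragments in every comparison (0 to 4 at an unadjusted p under 0.05). Of all 500 fragments it called 6 across genotypes and 0 in each other comparison. At an unadjusted p under 0.05 these numbers were 59 across genotypes and 3 to 29 in the others.

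Among the 11 fragments, edgeR called none in any comparison. Across the 6 genotypes 0 of 11 passed an adjusted p of 0.05, where 15% of all 153 fragments tested did, and 2 of 11 passed an unadjusted p of 0.05 (34.6% of all). For CH against CC, CF against CC and HC against HH, none passed after adjustment (0.654%, 0% and 0% of all) and 1 fragment each passed before it (15%, 13.7% and 12.4% of all). These were 32 to 53 in CH (log2 difference -3.53 against CC, adjusted p = 0.165, with CH at 0 reads, so no bound), 35 to 55 in CF as above, and 36 to 59 in HC (-1.64 against HH, adjusted p = 0.374). Without its 4 CC reads, the fragment 32 to 53 would not have reached the minimum of reads for a test. For males against females 0 passed either way (0% and 1.96% of all). DESeq2 called 0 of these 11 and 0 of all 153 fragments in each comparison, so its 0 says nothing particular of these fragments.

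Among starts, edgeR called 1 of 12 across genotypes, position 33 in the anticodon (adjusted p = 0.0233), where 12.7% of all 63 starts were called, so these starts were called no more often than starts in general. At an unadjusted p under 0.05 there were 3 of 12 (31.7% of all). Its 47 reads lay in HC (33 reads in 6 of 13 libraries, 16 of them in HC male replicate 3), CC (5 in 3 of 12), HH (5 in 1 of 11), CH (3 in 2 of 12), CF (1 in 1 of 12) and FF (0 of 11). The median library of every genotype had 0 reads. The call was lost when HC female replicate 5 (adjusted p = 0.572) or HC male replicate 5 (0.203) was left out, and it was kept in 4 of 7 other settings of the test. No start was called for CH against CC, CF against CC or HC against HH (0% of all in each), with 1, 1 and 2 of the 12 at an unadjusted p under 0.05 (12.7%, 12.7% and 7.94% of all).

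For males against females, edgeR called 1 of 12 starts, position 36 (1.59% of all starts), which was also the only start of these fragments at an unadjusted p under 0.05 (4.76% of all). Males had 37 reads there in 11 of 35 libraries (lowest 0, median 0, highest 8) and females 20 reads in 7 of 36 libraries (lowest 0, median 0, highest 6). The libraries of the sexes overlapped, and most of either sex had no read at this position. Per *mt-TR* read the pooled use was 1.27% in males and 0.740% in females, a ratio of 1.72 (counting interval 0.974 to 3.13). The fitted log2 difference was 2.43, higher in males (adjusted p = 0.0152, edgeR), while a permutation test of the mean share over libraries gave p = 0.189 (adjusted p = 0.288 over 6 positions tested in this way). The edgeR call was lost without HC male replicate 3 (adjusted p = 1, log2 difference 2.06), FF male replicate 4 (1, 1.73) or CH male replicate 4 (0.0901, 2.04), and also without the batch term (0.314) and in batch 2 alone (1).

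Among ends, edgeR called 4 of 16 across genotypes, the consecutive positions 53, 54, 55 and 56 at the 3′ side of the T-loop and the first base of the stem after it. As 25.3% of all 79 ends were called, this count is at the background, as are the 6 at an unadjusted p under 0.05 (38% of all). Position 55 had the lowest adjusted p (0.00063), and its call was kept without any 1 of the 71 libraries (adjusted p up to 0.0227). It was lost with DESeq2, whose test across genotypes is another one, as it also covers genotype differences that vary by sex. The call was also lost in batch 2 alone, where no end of these fragments had an adjusted p under 0.0535. CF held 25 reads ending there in 6 of 12 libraries (lowest 0, median 1, highest 8), HC 32 in 6 of 13 (18 of them in HC male replicate 3), CC 6 in 5 of 12, CH 6 in 3 of 12, HH 2 in 1 of 11 and FF 0 of 11. Per *mt-TR* read, the pooled use was thus 3.65% in CF, 1.32% in HC, 0.920% in CC, 0.742% in CH and 0.231% in HH, and in FF 0 of 177 reads allows up to 1.69%. Libraries at 0 occurred in every genotype, so all groups overlapped. End 55 was not called by edgeR for CF against CC (log2 difference 1.85, adjusted p = 0.234), CH against CC (-1.80, adjusted p = 0.239) or HC against HH. Of the 25 CF reads, 11 were of the fragment 35 to 55 and 9 of 32 to 55.

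The other 3 ends called across genotypes had adjusted p of 0.018 (53), 0.00811 (54) and 0.00172 (56). The calls were lost without CC female replicate 6 for position 53 (0.0689), CC male replicate 5 for 54 (0.875), and CC female replicate 2 (0.0875) or CC male replicate 5 (0.0702) for 56. Each of these libraries held 3 to 5 of the CC reads at the position.

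For CH against CC, which share the nuclear genome and differ in mtDNA, edgeR called 4 of 16 ends (11.4% of all ends), and 5 passed an unadjusted p of 0.05 (20.3% of all). No CH female library shared a batch with a CC female library, so in females this difference rests on the batch term. End 53 had 8 reads in 4 of 12 CC libraries (highest 3) and 1 read in 1 of 12 CH libraries, 1.23% against 0.124% of the *mt-TR* reads, with a ratio of 9.93 (counting interval 1.33 to 440). Its fitted log2 difference was -3.94 (adjusted p = 0.00567). End 54 had 9 reads in 4 CC libraries (highest 5) and 4 in 2 CH libraries (2 each), a ratio of 2.79 (counting interval 0.779 to 12.4), with a log2 difference of -3.29 (adjusted p = 0.0112). Both groups had a median of 0 reads at either end, so they overlapped, and the calls were lost without the same 2 libraries as above (adjusted p = 1 for both, with log2 differences of -2.72 and -1.63).

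End 56 had 9 reads in 4 CC libraries, 4 in CC female replicate 2, 3 in CC male replicate 5 and 1 each in CC female replicate 5 and CC male replicate 4, and 0 of 809 in the 12 CH libraries, which allows a share of up to 0.371%. Taking 3 reads over the group as the floor for CH, the pooled use was 3.72-fold or more lower in CH. This figure leaves out the counting error of the 9 CC reads. The fitted log2 difference was -4.06 (edgeR, adjusted p = 0.00283), and since CH was at 0 it is not a bound. The 8 other CC libraries were also at 0. End 66, in the acceptor stem, was called in the other direction, with 13 reads in 6 CH libraries (highest 4) and 5 in 2 CC libraries (highest 3), a ratio of 2.10 (counting interval 0.701 to 7.51) and a log2 difference of 2.82 (adjusted p = 0.047). The call for 56 was kept without any 1 library (adjusted p up to 0.0319), while that for 66 was lost in 22 of the 71 omissions, with an adjusted p of 0.379 without CH female replicate 5 and 0.334 without CH male replicate 2, and it was also lost with TMM (0.263) and with no minimum of reads (0.0607). With DESeq2 or in batch 2 alone none of the 4 calls was kept, and without the batch term only that of 56. By permutation tests of the mean shares, none of the 4 ends passed 0.05, with p = 0.240 (53), 0.499 (54), 0.104 (56) and 0.132 (66), or 0.288 to 0.499 after adjustment over the 6 positions. These permutations kept sex but took no account of batch.

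For CF against CC, which again share the nuclear genome, edgeR called 1 of 16 ends (5.06% of all ends), and 4 passed an unadjusted p of 0.05 (13.9% of all). This was 56, with 1 read in CF female replicate 6 and 0 in the other 11 CF libraries against the 9 CC reads above, a ratio of 9.44 (counting interval 1.31 to 414). The log2 difference was -3.13 (adjusted p = 0.0176), and the permutation test gave p = 0.215. The call was lost without CC female replicate 2 (adjusted p = 0.165), CC male replicate 5 (0.132) or CF male replicate 5 (0.0631), without the batch term (0.0603) and in batch 2 alone (0.0921). The comparisons of CH and of CF use the same CC libraries, so they are not independent. For HC against HH and for males against females 0 of 16 ends were called (0% of all in each), with 2 and 1 at an unadjusted p under 0.05 (8.86% and 6.33% of all). DESeq2 called no start or end in any comparison, either of these fragments or among all 63 starts and 79 ends.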

How the data were processed

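The authors deposited counts, the reads of each unique sequence that matched *mt-TR* in each library, without normalization. Per the labels, mouse lung small RNA was made into libraries by circularization with a single adapter, and the submitters' processing notes name FastQC 0.12.1, UMI-tools 1.1.6, cutadapt 5.0, BWA 0.7.18, Bowtie 1.3.1 and mm10. The methods describe deduplication of reads by molecular identifiers with UMI-tools, without naming the tissue. The counts hold sequences of 15 nt, below the length minimum given there, and which steps were applied to lung is not stated. The protocol mentions pooling of intact RNA, and whether a library is 1 animal is not stated, so p-values measure the spread between libraries. The design text names liver, while title, labels and paper name lung.

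Sequences were placed on mature *mt-TR* by exact match, with positions counted from the 3′ end in C numbering. The fragments and named positions were chosen with earlier results of these data known. Named were the 10 fragments with the most reads, the 3 most used starts and ends, the 3 fragments in the most libraries, and fragments past the threshold. Positions past the threshold were also described, after their values were seen.

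Counts were tested with edgeR 4.0.16 (R 4.3.3, quasi-likelihood test, offset of the library's *mt-TR* reads, features with at least 10 reads, groups of genotype and sex plus batch, 71 libraries), with Benjamini-Hochberg adjusted p under 0.05. The code was tested on simulated data. Alternatives were TMM, DESeq2 1.42.0, no filter, no batch term, batch 2 alone, a replicate block and leaving out libraries. Across genotypes, edgeR tested differences averaged over the sexes. DESeq2 used a likelihood ratio test of the groups against sex and batch alone, so the 2 tests are not the same. Permutation tests were two-sided, with 100000 resamples and labels permuted within sex (within genotype for the sexes), without regard to batch. They and the omission of each library in turn were chosen after seeing the data, as was the pyrimidine share with its alternatives. Other calculations used Python 3.11.15, pandas 2.3.3 and scipy 1.17.1.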

Additional observations from a re-analysis of the deposited data

Results flagged for a closer look

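In groups of 4 to 7 libraries of the same genotype and sex, 5 extreme values stood apart from the rest by Dixon's criterion. There were 23 combinations of a group with a measure, where chance would give about 1.15 for normally distributed values. Read counts this low are not normally distributed, so 1.15 is only a rough guide. For the number of internal reads, HC male replicate 3 had 101 against 12 in the next library of its group, HH male replicate 5 had 26 against 1, and FF male replicate 4 had 3 against 1. Without HC male replicate 3, the deepest library, HC had 101 internal reads of 1140 (8.86%). For the internal share in libraries with at least 10 reads, HH female replicate 4 had 22.7% (next 6.25%, 5 libraries), on 22 *mt-TR* reads. FF male replicate 4 had 12.5% while the other 3 libraries had 0, and its 3 internal reads, of 24, were all of the fragment 36 to 59.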

How the results depend on the processing

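The pooled internal share of 8.22% became 6.21% with starts from 34 on and 21.6% when each sequence counted once, and lay between 7.90% (without HC female replicate 3) and 8.44% (without HH female replicate 5) when 1 library was left out. Of the 35 recomputed numbers of calls whose main value was above 0, 16 were within 1.5 times of it and 19 were not. The other 70 have a main value of 0 and say little of stability. With TMM the calls across genotypes rose to 4 of 11 fragments (from 0), 4 of 12 starts (from 1) and 7 of 16 ends (from 4). Among all features, TMM called 92 of 153 fragments, 27 of 63 starts and 47 of 79 ends, so the rise was not particular to these fragments. With DESeq2 all calls fell to 0, among these fragments and among all features. Without the batch term, 3 of 12 starts were called across genotypes (13 of all 63) and 0 for the sexes (0 of all 63). Ends called in that setting were 1 of 16 for CH and 0 of 16 for CF against CC (4 and 2 of all 79). In batch 2 alone, where fewer features reached 10 reads, 2 of 9 starts were called across genotypes (6 of all 54). There, 0 starts were called for the sexes and 0 ends for genotypes, CH or CF, both of these fragments and of all features. Without HC male replicate 3, 2 of 11 starts were called across genotypes (8 of all 62) and 0 for the sexes (0 of all 62). The labels give no shared animal, litter or day for a replicate number, and the numbers did not pair the libraries: same-numbered libraries had mean correlations of -0.022 to 0.016 between their deviations, and only 2 of 12, 1 of 12, 1 of 11 and 4 of 34 correlated best with their own number (CH, CF, HC and the sexes). With the replicate block, 0 of 12 starts were called across genotypes (from 1, with 9 of all 63 called). For CH against CC it gave 3 of 16 ends (from 4, with 9 of all 79 called), and end 54 had an edgeR adjusted p of 0.206 and a log2 difference of -2.29. Depth limits all of these results, since most libraries held no read at a given position.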
